A study of Rattus norvegicus with 15 samples.

Results

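The genes described here belong by symbol to the families of nuclear subunits of the mitochondrial respiratory chain and of ATP synthase. They were grouped by complex and followed in the epididymal fat of obese and lean rats. They were chosen by symbol: a gene was a member if a probe set (the group of short probes that reads 1 transcript on the array) named it alone and its symbol belonged to the Nduf, Sdh, Uqcr, Cox4 to Cox8 or Atp5 families or was Cyc1. The rule found 79 genes, read by 88 probe sets, among the 14217 genes that probe sets named singly, and no expression value was used to choose them. Complex I had 36 members, complex II 4, complex III 8, complex IV 15 and complex V, the ATP synthase, 16. These counts go by symbol and include the pseudogene Cox6c-ps1, and Cox7a2l and the inhibitor Atp5if1, which are not fixed subunits. Of the 79 members, 78 were bright enough to be tested, and Cox6a2 was not. Cytochrome c (Cycs), Cox7a2 and Atp5mc1 were read only by probe sets that also named a related gene or pseudogene, so they gave no member. The array also read Ndufs5, Ndufa10, Uqcrb and Atp5mc2 only in this shared way. In all, 9 probe sets that named a family gene and another gene were left out. Among them was another probe set of Cox5a, which also had one of its own.

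Total RNA came from epididymal fat, the white fat pad beside the epididymis, of 7 diet-induced obese (DIO) and 8 control lean male Long-Evans rats, with 1 Affymetrix RAE230_2 array per rat. The colony's rats had been fed either a diet rich in fat and sucrose (TD95217) or chow (Purina 5008) from weaning. The rats were shipped at age 14 weeks and acclimated for 2 weeks. They had a glucose test at age 21 weeks, and blood was taken after a fast at 25 weeks. Fed animals were killed in the morning, aged 26 weeks, and no transgene or drug is named for them. The titles give each rat's group but not its diet. The obese rats are numbered 1, 2, 3, 5, 6, 7 and 8 and the lean rats 1 to 8, as in their titles, and a number shared by an obese and a lean rat names different animals.

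The respiratory chain sits in the inner mitochondrial membrane. Complex I (NADH dehydrogenase) and complex II (succinate dehydrogenase) pass electrons to ubiquinone, complex III passes them to cytochrome c, and complex IV (cytochrome c oxidase) passes them to oxygen, while complexes I, III and IV pump protons that drive ATP synthase. Most subunits are encoded in the nucleus and a few, at the core, in mitochondrial DNA. White fat cells hold few mitochondria beside brown fat cells, and use them for fatty acid handling and for the making of new fat as well as for ATP.

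Values are MAS5 signals, linear intensities in arbitrary units that the authors had scaled to a common trimmed mean, and fold changes are differences of log2(signal + 79.9) between the group means, obese minus lean. A signal compares rats for 1 probe set and cannot be compared between genes. In whole fat, fewer cells of a type and less RNA per cell cannot be told apart. The label of the tissue was checked with fat cell markers: all 8 were bright enough to be tested, and adiponectin (Adipoq) had signals of 31853 to 70488 in obese and 47634 to 74165 in lean rats.

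Before any comparison, 2 arrays stood apart. Obese rat 1 and lean rat 7 carried opposite labels but were nearly the same. The SD of their log2 difference, over the probe sets bright enough to be tested, was 0.22. The next closest pair of arrays, lean rats 2 and 7, had 0.37. Results are therefore given with all 15 arrays and with the 13 left without this pair. The arrays also differed in ways that went with group. The log2 ratio of the 3 prime to the 5 prime Gapdh probe set, a measure of RNA integrity and labelling, averaged 0.77 with an SD of 0.28 over the 7 obese rats, against 1.05 with an SD of 0.26 over the 8 lean rats. The same ratio for actin was 1.38 ± 0.37 in obese and 1.75 ± 0.23 in lean rats, and the median log2 signal was 9.69 ± 0.084 in obese and 9.79 ± 0.063 in lean rats.

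RefSeq promoters (assembly GRCr8) were available for 70 of the 79 members. A window of 300 bases, from 250 before the start of the gene to 50 after it, was searched on both strands for 4 short motifs of factors known to bind promoters of mitochondrial genes, which were chosen knowing the results. GCGCNTGCG, letters read by NRF1, was in 25.7% of the members' windows, 13.2% of those of the 8726 tested genes with a promoter, and 6.34% of all 27457 windows. A longer form, with a further C after these letters, was searched first and was in 18.6%, 9.95% and 4.71%. CCGGAAG, read by ETS factors such as GABP, was in 28.6%, 17.4% and 9.22%. AAGATGGC, read by YY1, was in 22.9%, 5.54% and 3.44%, and 16 members held it, of which 2 held it before the start. GGGCGG, read by Sp1, was in 42.9%, 62.2% and 34.9%. No motif contains another, although a match to CCGGAAG can run into one to AAGATGGC. A match is a description of letters, not a binding site.

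The upstream 250 bases of 3 members are shown, 1 for each of the motifs that occurred before the start in over 5 members, with the matched letters in capitals on whichever strand they lie. Ndufa13, at chr16:19560276-19560525 on the plus strand, and Sdhc, at chr13:86098026-86098275 on the minus strand, had the smallest p of complexes I and II, and hold CCGGAAG and GGGCGG. Uqcrc1, at chr8:118467973-118468222 on the plus strand, is a core subunit of complex III and holds the NRF1 letters.
Ndufa13: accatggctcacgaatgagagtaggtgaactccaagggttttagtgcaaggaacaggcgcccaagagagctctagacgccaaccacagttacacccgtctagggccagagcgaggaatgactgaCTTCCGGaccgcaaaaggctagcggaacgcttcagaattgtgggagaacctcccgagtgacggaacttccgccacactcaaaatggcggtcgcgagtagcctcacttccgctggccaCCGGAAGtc
Sdhc: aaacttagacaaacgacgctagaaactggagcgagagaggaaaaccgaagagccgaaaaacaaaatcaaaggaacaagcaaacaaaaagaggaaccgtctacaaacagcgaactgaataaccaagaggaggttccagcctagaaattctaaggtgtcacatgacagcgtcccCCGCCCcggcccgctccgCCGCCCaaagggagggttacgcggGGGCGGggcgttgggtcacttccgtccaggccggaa
Uqcrc1: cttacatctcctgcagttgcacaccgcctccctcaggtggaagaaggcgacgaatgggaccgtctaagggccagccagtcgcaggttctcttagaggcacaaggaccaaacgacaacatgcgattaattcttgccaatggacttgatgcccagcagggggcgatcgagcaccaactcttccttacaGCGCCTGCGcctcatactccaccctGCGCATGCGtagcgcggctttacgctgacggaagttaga
The promoter of Ndufa13 holds 2 matches, that of Sdhc 3 and that of Uqcrc1 2. The corresponding stretch of Cox6b1, described further on, holds none of the 4 motifs, which says only that these letters are not in that window. NRF1 letters were in 7 of 34 promoters of complex I, 2 of 4 of complex II, 2 of 6 of complex III, 0 of 11 of complex IV and 7 of 15 of complex V, that of Atp5f1d among them. The 18 members with them had a median log2 fold change of 0.14, with 17 above 0, and the 51 tested members without them had 0.089, with 40 above 0. For the longer form these were 13 members, 0.13 and 13 above 0. For the other motifs the order was the opposite: members with CCGGAAG had a median of 0.067 against 0.12 without it, those with AAGATGGC 0.093 against 0.10, and those with GGGCGG 0.097 against 0.10. None of these differences was tested.

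Most members had slightly higher means in obese fat, and none passed the test. With 15 arrays, 0 of 78 members reached a limma adjusted p of 0.05, where percent called over all 18625 tested probe sets was 0.0. Without the pair, 0 of 78 passed again, against 1.01% of all probe sets in either direction and 0.725% higher in obese rats. The log2 fold change was above 0 for 63 of 78 members (80.8%, against 42.5% of all tested probe sets), with a median of 0.10 beside -0.038 for all probe sets and 0.042 for the brightest 20% of them, where 66 of the members lie. Without the pair, 63 were again above 0 (42.2% of all probe sets) and the median was 0.12. The count depended on the scaling of the arrays described further on: it was 44 after quantile normalization and 73 after median centring. At an unadjusted limma p under 0.05, 12 members were higher in obese rats (15.4%, against 6.74% of all probe sets) and 1 was lower (1.28%, against 8.82%), so the share in either direction, 16.7%, lay near the 15.6% of the background. In the brightest 20% of probe sets 13.9% were higher and 3.81% lower at this p, and 60.2% had a fold change above 0, so the members' 15.4% lay near the share at their own brightness. Without the pair 14 were higher (17.9%, against 7.59%) and 1 was lower (1.28%, against 10.2%), and the 19.2% in either direction again lay near the background, 17.8%, with 15.1% higher and 4.54% lower among the brightest 20%. No member had groups that did not overlap (0.193% of probe sets).

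The differences were small and most intervals held 0, with a median lower end of -0.12 and a median upper end of 0.35. All 78 intervals of 95% confidence lay within 1 log2 unit of 0, and 62 lay within 0.5. Without the pair, 76 and 52 did. The median residual SD of the members was 0.20 log2 units, against 0.26 for all tested probe sets and 0.19 for the brightest 20%. The complexes differed in how many of their members lay above 0: 32 of 36 in complex I (median 0.14), 4 of 4 in complex II (0.10), 7 of 8 in complex III (0.15), 7 of 14 in complex IV (-0.0029) and 13 of 16 in complex V (0.083). After quantile normalization these counts were 25, 2, 6, 4 and 7, and after median centring 35, 4, 8, 10 and 16. The counts and medians describe the members and were not tested against each other. Single rats moved some medians by over 1.5 times. That of complex V was 0.023 when lean rat 1 was left out, 0.033 when obese rat 6 was, 0.052 for obese rat 7, and 0.13 both for obese rat 2 and for obese rat 8, each left out alone. That of complex III was 0.096 without lean rat 1 and 0.10 without obese rat 3, and that of complex II was 0.065 without obese rat 6. The plot of all fold changes with their intervals shows this order.

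**Figure D1:**
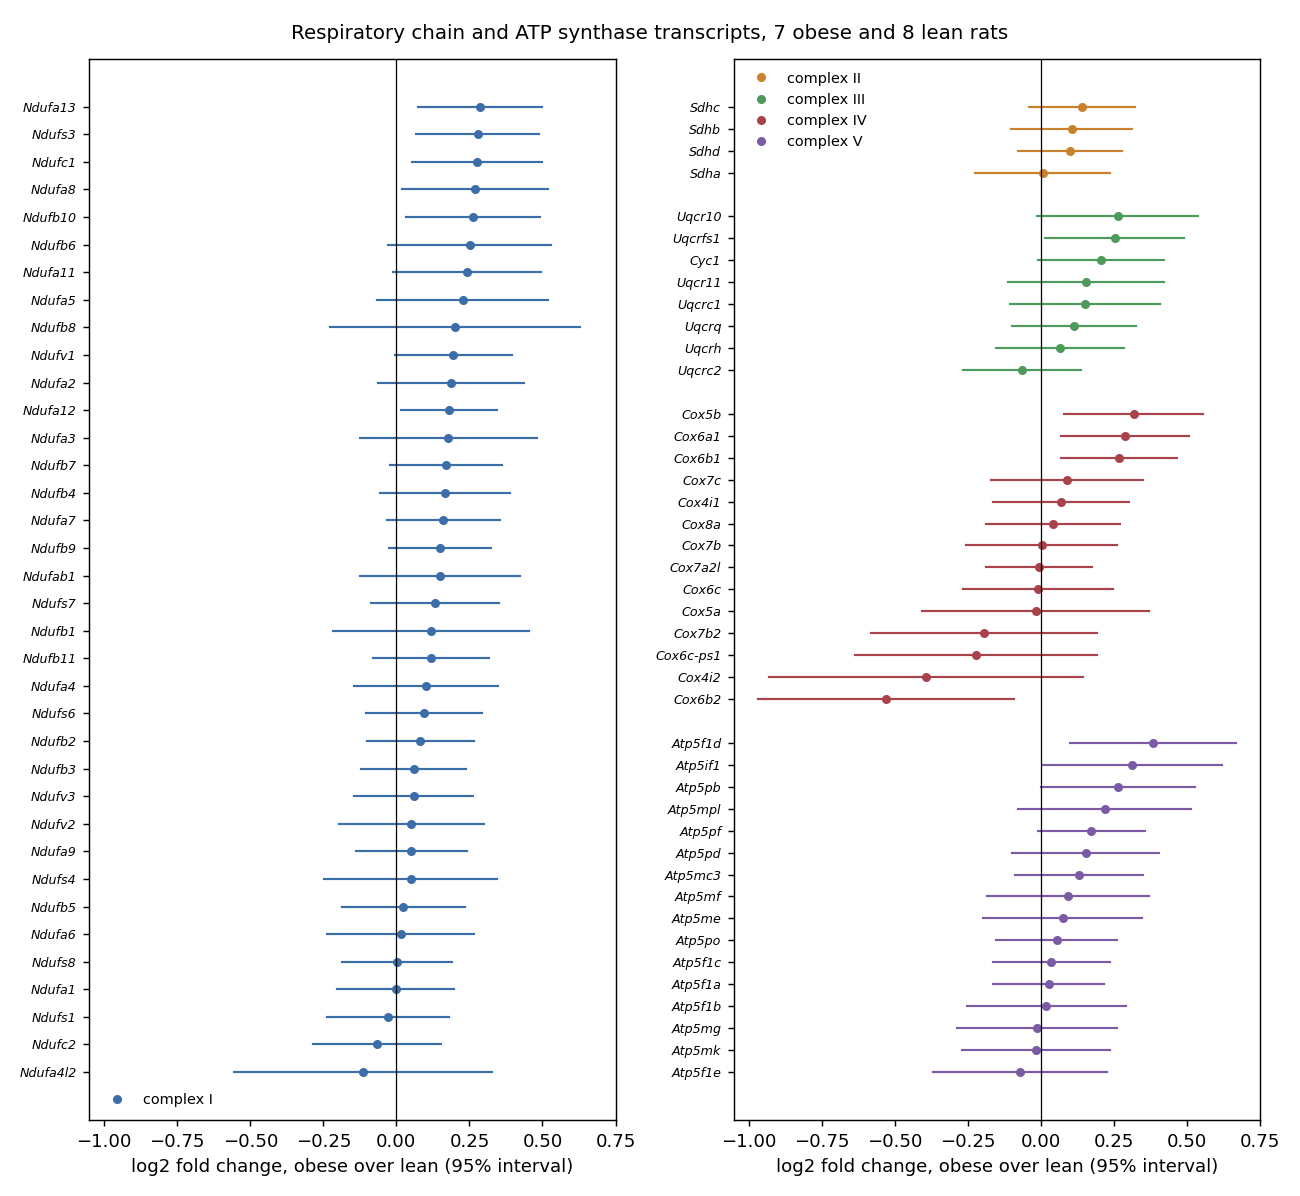
Log2 fold change (x axis, obese over lean, 7 and 8 rats) of each of the 78 tested members, in colours by complex and sorted within it, with horizontal bars for the 95% interval from limma. Most points lie right of 0, 13 intervals leave out 0, and the points of complex IV run from -0.53 (Cox6b2) to 0.32 (Cox5b).

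Complex I is the largest complex, with a membrane arm that pumps protons and a peripheral arm that binds NADH. Of its 36 members, 6 had an unadjusted p under 0.05, all higher in obese rats: Ndufa13, Ndufs3, Ndufc1, Ndufb10, Ndufa12 and Ndufa8. Ndufa13, a small subunit at the junction of the arms, had signals of 9921, 10950 and 14822 (lowest, median and highest) in obese and 8326, 9611 and 10940 in lean rats. All 7 obese rats lay above the lean median and 4 above the highest lean rat, which was lean rat 7. The log2 fold change was 0.29 ± 0.10 (SE, limma adjusted p = 0.198), a fold of 1.22, and 0.33 ± 0.11 (adjusted p = 0.146) without the pair. Ndufs3, a core subunit near the ubiquinone site, had 4547, 5266 and 6025 in obese and 3335, 4349 and 4878 in lean rats. Its log2 fold change was 0.28 ± 0.10 (SE, limma adjusted p = 0.203), with 7 obese rats above the lean median.

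Ndufa12, a small subunit of the peripheral arm, showed the narrowest spread of these. It had signals of 9489, 11941 and 12606 in obese and 9260, 10236 and 10825 in lean rats. Of the 7 obese rats, 6 lay above every lean rat, and the lowest value of all belonged to lean rat 1. The log2 fold change was 0.18 ± 0.078 (SE, limma adjusted p = 0.278). Without the pair it was 0.23 ± 0.079 (adjusted p = 0.145), and the groups then did not overlap, with the lowest obese rat at 11459 and the highest lean rat at 10825. Ndufa12 was the only member of 78 with such a gap (1.28%), where 0.918% of all tested probe sets had one in that direction and 1.45% in either.

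The subunits that bind NADH and carry the first electrons did not share 1 direction of any size. Ndufv1, which holds the flavin, had 5798, 6721 and 7534 in obese and 4957, 5925 and 7363 in lean rats, which gave a log2 difference of 0.20 ± 0.095 (SE, limma adjusted p = 0.338). Ndufv2 had 0.052 ± 0.12 (adjusted p = 0.866), with obese rat 6 at 16326 above all others. Ndufs1, the large iron-sulfur subunit, had 2954, 3457 and 4108 in obese and 2940, 3505 and 4347 in lean rats, and its groups overlapped almost fully. Its difference between the group means, in log2 units, was -0.028 ± 0.099 (adjusted p = 0.915), with an interval of -0.24 to 0.18.

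The supernumerary subunits surround that core. All 11 Ndufb members, which belong to the membrane arm, had fold changes above 0, from 0.024 (Ndufb5) to 0.26 (Ndufb10), with a median of 0.15, although Ndufb3 and Ndufb5 turned negative after quantile normalization (-0.031 and -0.055). Ndufb8 was dim and variable, with 684, 1203 and 1712 in obese and 456, 1101 and 1272 in lean rats, and a log2 difference of 0.20 ± 0.20 (SE, limma adjusted p = 0.671). Of the 14 Ndufa members, 12 were above 0, with a median of 0.17, and 9 were after quantile normalization. Ndufa9, which stabilises the junction of the arms, had 0.050 ± 0.090 (adjusted p = 0.825), and obese rat 3 was the lowest of all 15 rats at 4851. Ndufab1, the acyl carrier protein of mitochondria, had 0.15 ± 0.13 (adjusted p = 0.611). Ndufa4 is kept here by its symbol although it is now placed in complex IV, and had 0.10 ± 0.12 (adjusted p = 0.717).

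Complex II oxidises succinate and is also an enzyme of the citric acid cycle. Its flavin subunit Sdha had signals of 12037, 14304 and 18200 in obese and 11051, 14526 and 17838 in lean rats. The groups overlapped throughout, with a log2 difference of 0.0050 ± 0.11 (SE, limma adjusted p = 0.987) and an interval of -0.23 to 0.24. The iron-sulfur subunit Sdhb had 0.10 ± 0.098 (adjusted p = 0.641), with all 7 obese rats above the lean median of 11962 and lean rat 8 at 16187. The membrane anchors were Sdhc, at 0.14 ± 0.086 (adjusted p = 0.447), and Sdhd, at 0.10 ± 0.085 (adjusted p = 0.597). Sdhc had 13662, 14841 and 15581 in obese and 10788, 13551 and 15161 in lean rats, so the lowest obese rat lay just above the lean median. None of the 4 had an unadjusted p under 0.05.

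Complex III had the highest median of the complexes, 0.15. Uqcrfs1, the Rieske iron-sulfur protein, was its only member with an unadjusted p under 0.05. Its signals were 13777, 15868 and 18351 in obese and 9633, 13614 and 16845 in lean rats, with lean rat 1 lowest and all 7 obese rats above the lean median. The log2 fold change was 0.25 ± 0.11 (SE, limma adjusted p = 0.298), a fold of 1.19. Uqcr10, a small subunit, had 0.26 ± 0.13 (adjusted p = 0.347) and a wider spread, from 18068 to 30324 in obese and 13643 to 23301 in lean rats. Cyc1, cytochrome c1, hands electrons to cytochrome c. It had 11131, 14744 and 15957 in obese and 9974, 12741 and 13758 in lean rats, and 5 obese rats lay above every lean rat. Its log2 fold change was 0.20 ± 0.10 (adjusted p = 0.347).

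The core proteins of complex III differed in sign within their error. Uqcrc1 had 0.15 ± 0.12 (SE, limma adjusted p = 0.574), with obese rat 3 the highest of all 15 rats at 15855. Uqcrc2 had -0.066 ± 0.096 (adjusted p = 0.782), with the same rat the lowest at 10004. A second, dimmer probe set of Uqcrc2 had a log2 difference of 0.096 ± 0.10, so the direction for this gene depends on the probe set.

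Complex IV divided into its common subunits and a group of dim forms. Cox5b, Cox6a1 and Cox6b1, nuclear subunits found in most tissues, had an unadjusted p under 0.05 and were higher in obese rats. Cox6b1, on the face toward cytochrome c, had signals of 19801, 20651 and 26843 in obese and 15727, 17972 and 20329 in lean rats. Of the 7 obese rats, 5 lay above every lean rat, and the log2 fold change was 0.27 ± 0.095 (SE, limma adjusted p = 0.200). Cox5b, a zinc-binding subunit on the matrix side, had 14422, 16525 and 21265 in obese and 10459, 14206 and 16279 in lean rats. Again 5 obese rats lay above every lean rat, and lean rat 1 was lowest, for a log2 difference of 0.32 ± 0.11 (adjusted p = 0.203). Cox6a1 had 12368, 14299 and 17589 in obese and 9880, 12210 and 14533 in lean rats, and 0.29 ± 0.10 (adjusted p = 0.205). Without the pair these became 0.31, 0.37 and 0.34, with adjusted p of 0.148, 0.149 and 0.139.

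Other common subunits of complex IV had differences smaller than their SE with the deposited scaling. Cox4i1, which takes part in the control of the enzyme by ATP, had 49513, 55883 and 67327 in obese and 40163, 55136 and 63061 in lean rats, which gave a log2 difference of 0.069 ± 0.11 (SE, limma adjusted p = 0.804). Cox8a had 0.041 ± 0.11 (adjusted p = 0.884). Cox5a, the partner of Cox5b, had the same medians within their spread, 3343 in obese and 3536 in lean rats, but a wide range in obese rats, 1669 to 5115. Its difference between the group means, in log2 units, was -0.019 ± 0.18 (adjusted p = 0.971), but -0.31 with the Gapdh ratio as a covariate. Another probe set that names Cox5a together with a further gene was left out by the rule and not read.

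The dim forms of complex IV had lower means in obese rats. Cox6b2, known as the testis form of Cox6b, had signals of 331, 576 and 1348 in obese and 691, 991 and 1338 in lean rats. Of the 7 obese rats, 6 lay below the lean median, and obese rat 3 was the highest of all 15. Its log2 fold change was -0.53 ± 0.21 (SE, limma adjusted p = 0.239), and -0.59 ± 0.23 (adjusted p = 0.206) without the pair. It was the only member past the threshold under any of 44 settings: without the pair and without obese rat 3 it had -0.79 ± 0.18 (adjusted p = 0.0489). Cox4i2, the form of Cox4 known from lung, had 109, 535 and 722 in obese and 339, 729 and 826 in lean rats. No obese rat lay above the lean median, and the log2 fold change was -0.39 ± 0.26 (adjusted p = 0.468). Obese rat 7, with the lowest signal of 109, pulled the obese mean down. Its log2 value lay at -1.75 from the mean of all 15 rats. The other obese rats lay from -0.17 to 0.34 and the lean rats from -0.60 to 0.51. Over the alternative settings that gave a value, the log2 fold change of Cox4i2 ran from -0.53 to -0.12.

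Together with Cox7b2 (-0.20 ± 0.18), the pseudogene Cox6c-ps1 (-0.22 ± 0.20) and Ndufa4l2, counted in complex I by its symbol (-0.11 ± 0.21), these made 5 members. All had negative fold changes, also in each alternative setting that gave them a value, with a median of -0.22. The 60th percentile filter gave no value for 4 of them. After quantile normalization their median was -0.16. The dimmest 20% of all probe sets, which held 3 of the 78 members, had a median of -0.12, or -0.015 after quantile normalization. Cox6b2 and Cox6c-ps1 were brighter and lay in the bins above it, with medians of -0.089 and -0.051, or -0.0077 and -0.0061 after quantile normalization. The dim member Ndufb8 of complex I was not in the group and had a positive fold change in each setting. The group was formed after its values were seen and gets no test, and without it complex IV had 7 of 10 members above 0 and a median of 0.055 (4 of 10 after quantile normalization, 10 of 10 after median centring). Cox6a2, the muscle form of Cox6a, had signals of 56.7 to 108 in obese and 67.1 to 416 in lean rats, below the filter at 531. The muscle and brown fat forms Cox7a1 and Cox8b, which were outside the rule, were below it too.

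**Figure D2:**
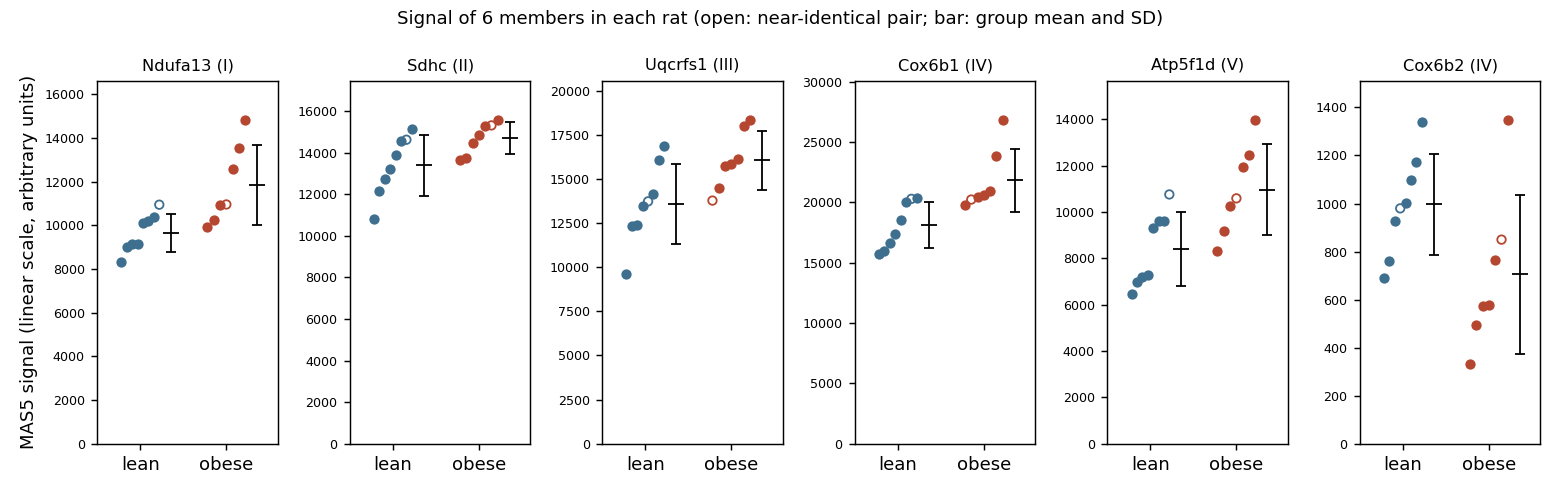
MAS5 signal (y axis, linear scale from 0, arbitrary units) in each lean and obese rat of the member with the smallest p of each complex, and of Cox6b2, whose fold change had the largest size. Points are rats sorted by value, open points are the near-identical pair, and bars give the mean and SD (n = 8 lean and 7 obese). The groups overlap in all 6 panels, and in the Cox6b2 panel 6 of 7 obese rats lie below the lean median.

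ATP synthase has a catalytic head (F1), a ring turned by protons and a stalk that holds the head still. The subunits of the catalytic core had fold changes near 0, which turned negative after quantile normalization (-0.080 for Atp5f1a, -0.038 for Atp5f1b and -0.080 for Atp5f1c). Atp5f1b, the catalytic beta subunit, had signals of 44441, 56354 and 70560 in obese and 41086, 57032 and 65503 in lean rats, which gave a log2 difference of 0.018 ± 0.13 (SE, limma adjusted p = 0.961). Atp5f1a had 0.026 ± 0.090 (adjusted p = 0.914), with an interval of -0.16 to 0.22. Atp5f1c, the central shaft, had 0.035 ± 0.095 (adjusted p = 0.888).

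Atp5f1d, the delta subunit at the foot of the shaft, had the largest positive fold change of all 78 members. Its signals were 8312, 10588 and 13974 in obese and 6449, 8294 and 10756 in lean rats. All 7 obese rats lay above the lean median and 3 above every lean rat, of which lean rat 7, of the near-identical pair, was the highest. Its difference between the group means, in log2 units, was 0.38 ± 0.14 (SE, limma adjusted p = 0.197), a fold of 1.30, and 0.44 ± 0.14 (adjusted p = 0.133) without the pair. Atp5f1e, the epsilon subunit next to it, had -0.071 ± 0.14 (adjusted p = 0.842).

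Atp5if1, the inhibitor that blocks the enzyme when it would run backward, had 2985, 4769 and 6009 in obese and 2886, 3657 and 4601 in lean rats. Of the obese rats, 5 lay above every lean rat and the others below the lean median, so the obese values were spread to both sides. Its log2 fold change was 0.31 ± 0.15 (SE, limma adjusted p = 0.319), and fell to 0.096 once the Gapdh ratio entered as a covariate. Among the stalk and membrane subunits, 8 of 10 were above 0 (5 after quantile normalization), with a median of 0.11. Atp5pb, of the outer stalk, had 0.26 ± 0.13 (adjusted p = 0.326), and Atp5mk, a small membrane subunit, had -0.018 ± 0.12 (adjusted p = 0.958).

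The level of the whole chain varied between rats within each group, by SDs of about the size of the difference between the groups. Averaged over all 78 members as a deviation from the 15-rat mean, obese rats 6, 7 and 3 were highest, at 0.21, 0.15 and 0.11 log2 units, and lean rat 1 was lowest, at -0.26. The 7 obese rats averaged 0.052 with an SD of 0.11 and the 8 lean rats -0.045 with an SD of 0.10, and obese rat 2, at -0.092, lay below 7 of the 8 lean rats. Obese rats 7 and 6 had 68 and 65 of 78 members above the 15-rat median, lean rat 1 had 8 and obese rat 2 had 17. Without lean rat 1, the median fold change of the members was 0.082 with 57 above 0, and without obese rat 6 it was 0.067 with 58 above 0.

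Complexes followed the same rats. In complex V obese rat 6 reached 0.34 and lean rat 1 -0.33. In complex III the same rats had 0.25 and -0.37, and in complex I 0.22 and -0.25. Complex IV differed, with obese rat 3 highest at 0.12 and means of -0.012 for the 7 obese rats (SD 0.084) and 0.010 for the 8 lean rats (SD 0.091). Obese rats 6, 7 and 8 also had the lowest array medians, 9.60, 9.59 and 9.65, and Gapdh ratios of 0.64, 0.51 and 0.35. Obese rat 8 had a members' mean of -0.028, and the part of these array measures in the members' levels was not tested.

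**Figure D3:**
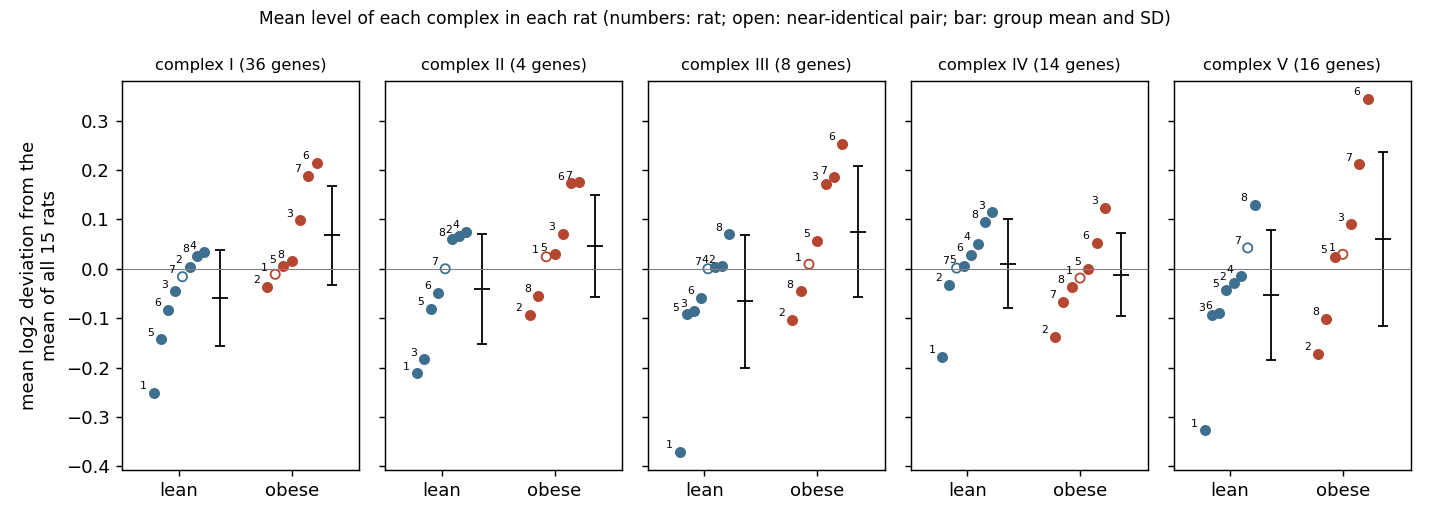
Mean over the tested members of each complex of the log2 value minus that gene's 15-rat mean (y axis, log2 units), by group, with the rat's number beside each point, open points for the near-identical pair and bars for the group mean and SD. Lean rat 1 lies lowest among lean rats in all 5 panels, obese rat 6 lies highest in complexes I, III and V, and the groups overlap in every panel.

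The sign of many members depended on how the arrays were put on a common scale. Over all tested probe sets, the median log2 fold change went, over 5 bins of 20% of them each, from -0.12 in the dimmest through -0.089, -0.051 and -0.0043 to 0.042 in the brightest, and the members lay mostly in the last. After quantile normalization, which gives all arrays the same distribution, the medians of the bins lay between -0.015 and -0.0061. The members then had a median of 0.026 with 44 of 78 above 0, where the brightest bin had -0.014, and 19 members went from positive to negative. After median centring, which moved the median of all probe sets from -0.038 to 0.064, the members had 0.20 with 73 of 78 above 0, where the brightest bin had 0.14.

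**Figure D4:**
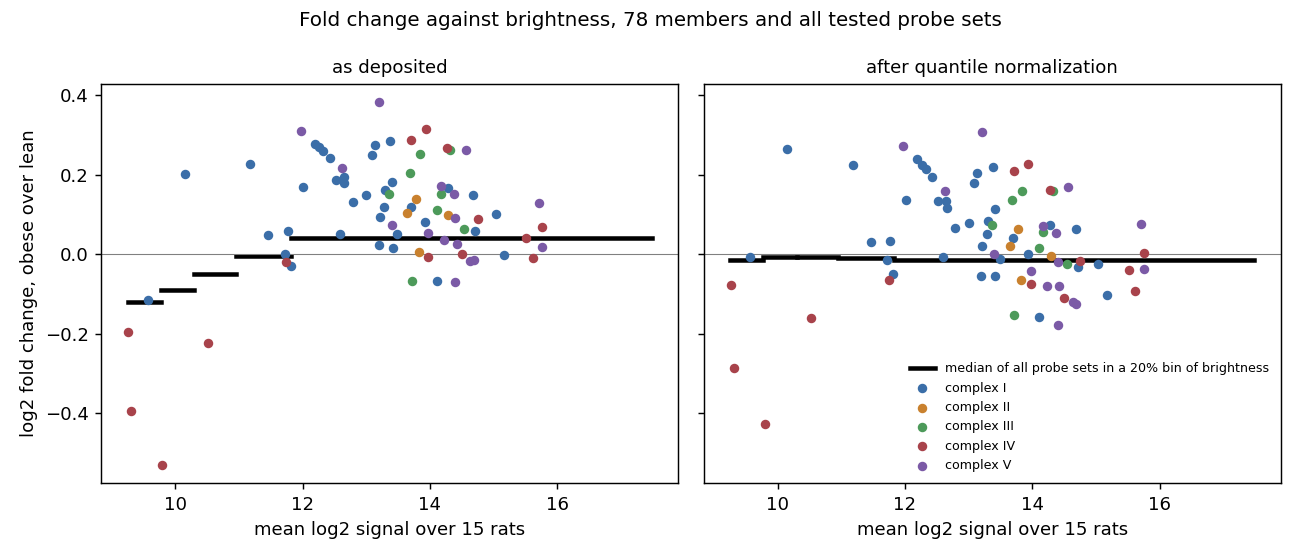
Log2 fold change (y axis, obese over lean) against mean log2 signal (x axis, 15 rats) of the 78 tested members, coloured by complex, on deposited signals (left) and after quantile normalization (right). Black bars are the median of all tested probe sets in each 20% bin of brightness, rising from -0.12 to 0.042 on the left and lying between -0.015 and -0.0061 on the right.

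Some of the order among complexes remained under each scaling. Complexes I and III had medians of 0.065 and 0.065 after quantile normalization and of 0.24 and 0.25 after centring. Complex IV had -0.070 and 0.099, and complex V -0.010 and 0.18, so the sign of both depends on the scale. With the Gapdh ratio as a covariate, complex III had 0.21 and complex I 0.12. Over 44 alternative settings 45 of 78 members kept 1 sign wherever they had a value, and 4 of the dim forms had none under the 60th percentile filter. Of the 45, 40 were positive, among them Ndufa13, Ndufs3, Uqcrfs1, Cox5b, Cox6a1, Cox6b1 and Atp5f1d.

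**Figure D5:**
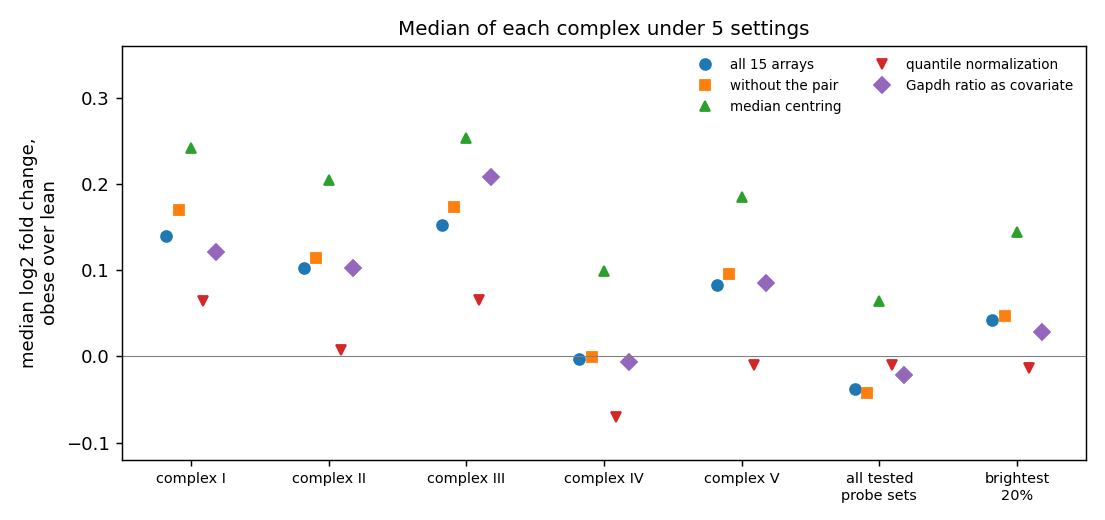
Median log2 fold change (y axis, obese over lean) of the tested members of each complex, of all tested probe sets and of their brightest 20%, under 5 settings shown by colour and shape. The median of complex IV lies at -0.0029 with 15 arrays, at 0.099 after median centring and at -0.070 after quantile normalization.

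Genes that build or serve the complexes were read from lists. Of 44 tested assembly factors, which put the complexes together, 0 passed with or without the pair, 21 were above 0 and the median was -0.0025. Examples chosen after their values were seen are Coa3, a factor of complex IV, at 0.33 ± 0.12 (SE, limma adjusted p = 0.205), Sdhaf1, a factor of complex II, at 0.30 ± 0.088 (adjusted p = 0.145), and Sco1, a copper carrier for complex IV, at -0.28 ± 0.11 (adjusted p = 0.244). Of 9 genes for supercomplexes and the shape of the inner membrane, 7 were above 0 and 0 passed, with a median of 0.13 (5 above 0 and 0.058 after quantile normalization). Of 17 regulators of mitochondrial genes, 5 were above 0 and 0 passed, with a median of -0.045. Ppargc1a, a coactivator of mitochondrial genes, had signals of 417 to 1155 in obese and 327 to 1360 in lean rats and a log2 difference of -0.34 ± 0.24 (adjusted p = 0.511).

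Electrons also enter the chain beside complexes I and II. Of 7 tested genes for these routes, 5 were above 0 and 0 passed, with a median of 0.16. Etfb and Etfa, which carry electrons from fatty acid oxidation, had 0.26 ± 0.11 (SE, limma adjusted p = 0.274) and 0.21 ± 0.11 (adjusted p = 0.347). Sqor, which feeds in electrons from sulfide, had -0.19 ± 0.091 (adjusted p = 0.321). The core of complex IV encoded in mitochondrial DNA was read by COX1 and COX2. COX1 had signals of 103173 to 411403 in obese and 105915 to 248339 in lean rats, with a log2 difference of -0.16 ± 0.25 (adjusted p = 0.799), and COX2 had -0.10 ± 0.19 (adjusted p = 0.826). After quantile normalization they had 0.042 and 0.0052, so their sign depends on the scale.

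Markers of other cell types were read beside these values. All 11 tested macrophage markers had fold changes above 0, also after quantile normalization, with a median of 0.43. Their summed signal, weighted to bright markers such as Lyz2 and Gpnmb, was 105381 to 279533 in obese and 86765 to 130108 in lean rats. None passed with 15 arrays, and Gpnmb, Tyrobp, Cd68 and Laptm5 passed without the pair. The rats high for macrophage markers were not always those high for the chain: obese rat 6 was highest for both (0.98 and 0.21), whereas obese rat 2 had 0.51 for macrophage markers and -0.092 for the members, and lean rat 1 had 0.10 and -0.26. The part of macrophage RNA in the members' levels was not tested.

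The 8 fat cell markers had a median of -0.061 with 3 above 0. Their summed signals, weighted to bright genes such as Fabp4, were 334643 to 626906 in obese and 362121 to 508419 in lean rats. In mean log2 deviation over these markers, obese rats 3 and 7, high for the chain, were highest, at 0.42 and 0.24. Obese rat 2 and lean rat 1, low for the chain, had -0.32 and -0.21. Obese rat 6 and lean rat 8, each the highest of its group for the chain, had -0.21 and -0.18. The part of fat cell RNA in the members' levels was not tested. Of 5 mesothelial markers 0 were above 0, with a median of -0.26, and of 4 endothelial markers 2 were, with 0.018. Muscle and brown fat are tissues rich in mitochondria. Of 11 skeletal muscle markers 3 were bright enough to be tested, with a median of -0.057 and 0 that passed, and Acta1, Myh4 and Mb were not bright enough. The skeletal muscle marker Myh1, a myosin heavy chain, had signals of 12235 to 14366 in obese and 12727 to 17953 in lean rats. Whether this probe set read muscle RNA was not tested. Of 7 brown fat markers 2 were tested, Cidea and Ppargc1a, and they went in opposite directions. Ucp1, Dio2, Elovl3, Cox7a1 and Cox8b were not bright enough. Ppargc1a was lower in obese rats, with a log2 difference of -0.34 ± 0.24 (SE), and -0.38 without the pair, and passed in neither. Cidea, a protein of lipid droplets, had signals of 11571 to 23348 in obese and 11030 to 13185 in lean rats. Its value was 0.51 ± 0.12 (SE, limma adjusted p = 0.103), and without the pair it passed, at 0.60 ± 0.11 (adjusted p = 0.0203). The part of brown fat RNA in the members' levels was not tested. The red blood cell, lymphocyte and mast cell lists had 2 tested markers each, with medians of 0.075, -0.23 and -0.20, and neither of the measured epididymal epithelium markers was bright enough.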

How the data were processed

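The authors deposited 1 intensity per probe set and array, which the submitters' processing notes name as MAS5 signal. The version and its settings are not given in the sources used here. The 2% trimmed mean was 1500.3 to 1500.4 on each array, so the intensity values had already been scaled and were used as deposited. The labels and the design text differ on RNA input (6 and 5 micrograms) and on the extraction reagent. No batch is named, and MAS5's background step makes low signals noisy.

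Of 31099 probe sets, 57 were controls. Platform annotation named 1 gene for 20826, several for 436 and none for 9780, and an Entrez ID in current use was found for 20764 of those with 1 gene. Values were log2(signal + 79.9), the 10th percentile of all signals. Probe sets with a mean above the 40th percentile were kept, 18625 in all, which read 10514 genes. The test was limma 3.58.1 (R 4.3.3, lmFit and eBayes, two-sided) over all kept probe sets, with p adjusted by Benjamini-Hochberg and called below 0.05, and the scripts were tested on simulated data. Each gene took its brightest probe set. The number of arrays limits the precision, and p-values measure the spread between rats, 1 array each.

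Members, lists, motifs and alternatives were chosen with earlier results of these data known. Named members were 30 set by role, of which 4 had no single-gene probe set, and the 2 per complex and direction with the smallest p. Others described were picked after their values were seen. Alternatives were array weights, leaving out the near-identical pair or each rat, quantile normalization, pseudocounts of 1 and 291.2, the Gapdh ratio as a covariate, a 60th percentile filter and no filter, trend and robust options of eBayes, median centring, a block for the rat number, and 1 probe set or the mean of probe sets per gene. No label pairs the rats by number. Same-numbered rats' deviations correlated at -0.11 to 0.24, which cannot tell whether the rats were paired. Cross-reaction of probe sets with pseudogenes or paralogs was not tested. Promoter letters came from RefSeq (GRCr8).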

Additional observations from a re-analysis of the deposited data

Results flagged for a closer look

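Of 82 groups of values examined (each named member and each mean over members, in obese and in lean rats), 11 held 1 rat far from the others of its group by Dixon's criterion, which chance alone gives in about 1 group in 20. Values are log2(signal + 79.9) unless they are means over members. Averaged over all members, lean rat 1 lay at -0.26, where the other lean rats lay from -0.09 to 0.07, and over complex III at -0.37, where they lay from -0.09 to 0.07. Lean rat 1 was also low for Cox5b, at 13.36 against 13.74 to 14.00.

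Obese rat 3 was low for Ndufa9, at 12.27 against 12.63 to 12.74, and for Uqcrc2, at 13.30 against 13.72 to 13.78. Lean rat 8 was high for Ndufa4, at 15.46 against 14.78 to 15.10, and for Sdhb, at 13.99 against 13.41 to 13.63. Lean rat 5 was low for Ndufb8, at 9.07 against 9.95 to 10.40. Obese rat 6 was high for Ndufv2, at 14.00 against 13.38 to 13.47. Obese rat 2 was low for Cyc1, at 13.45 against 13.76 to 13.97, and obese rat 7 for Cox4i2, at 7.56 against 9.14 to 9.65. The causes were not tested.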

How the results depend on the processing

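The count of members past the limma threshold was 0 in all but 1 of 44 settings, and 0 to 1 when rats were left out in turn, with or without the pair (the 1 is Cox6b2). The count over all probe sets was 0 with 15 arrays (2898 at an unadjusted p under 0.05), 189 without the pair, 49 with the 60th percentile filter, 3 with no filter and 8 with trend and robust. Without the pair it was 14 with the Gapdh covariate, 389 after centring and 124 after quantile normalization, and 0 to 262 with rats left out in turn. Without obese rat 1 alone it was 245.

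Members with an unadjusted p under 0.05 numbered 13 with 15 arrays, 5 with the Gapdh covariate, 26 after centring and 6 after quantile normalization, 28 and 8 for these scalings without the pair, and 8 to 19 with rats left out, the lowest without obese rat 6 or 7. The median log2 fold change of complex IV, -0.0029, was 0.0052 with array weights, 0.041 with the 60th percentile filter, 0.099 after centring, 0.12 after centring without the pair, and -0.022 to 0.047 with rats left out. That of complex V became -0.010 after quantile normalization with and without the pair. Centring gave complex I 0.24, and without the pair 0.29, with 0.23 for all members and for complex II and 0.29 for complex III. The rat number as a replicate block gave 0 members past the threshold, a median of 0.11 and 62 above 0, and changed no call; same-numbered rats correlated best in 1 of 7.

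Signs turned for 15 of 35 named members. After quantile normalization, first with 15 arrays and then without the pair, the log2 fold changes were -0.023 and -0.023 (Ndufa4), -0.0074 and -0.016 (Ndufa9), -0.011 and -0.0089 (Ndufv2), -0.066 and -0.071 (Sdha), -0.0049 and -0.0071 (Sdhd), -0.039 and -0.038 (Cox8a), -0.080 and -0.099 (Atp5f1a), -0.038 and -0.046 (Atp5f1b), and -0.080 and -0.087 (Atp5f1c). After centring, in the same order, they were 0.036 and 0.044 (Ndufc2), 0.074 and 0.071 (Ndufs1), 0.036 and 0.026 (Uqcrc2), 0.083 and 0.096 (Cox5a), 0.031 and 0.034 (Atp5f1e), and 0.084 and 0.10 (Atp5mk). With the Gapdh covariate they were -0.0066 and -0.0085 (Ndufa4) and 0.033 and 0.0087 (Ndufs1), and Cox5a kept its sign at -0.31 and -0.39. Array weights gave -0.042 (Sdha), 0.074 (Cox5a), -0.0092 (Cox8a) and -0.035 (Atp5f1b). The mean over probe sets gave 0.015 (Uqcrc2), and the replicate block 0.012 (Ndufs1).

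With rats left out in turn the ranges were -0.023 to 0.057 (Atp5f1a), -0.057 to 0.076 (Atp5f1b), -0.016 to 0.12 (Atp5f1c), -0.19 to 0.00069 (Atp5f1e), -0.080 to 0.064 (Atp5mk), -0.14 to 0.18 (Cox5a), -0.013 to 0.11 (Cox8a), -0.085 to 0.012 (Ndufs1), -0.032 to 0.11 (Ndufv2), and -0.055 to 0.063 (Sdha). The causes were not tested. The other 20 named members kept their sign. Signals near background limit Cox4i2, Cox6b2, Cox7b2, Ndufa4l2 and Ndufb8.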

Other observations

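Genes next to the chain had values that no comparison above used. Of 8 tested carriers of ATP and phosphate, pores and uncouplers, 7 were above 0, with a median log2 fold change of 0.19 (0.099 after quantile normalization), and 0 passed the limma threshold with or without the pair. Those named here were chosen after their values were seen. Vdac1, the main pore of the outer membrane, had signals of 7549 to 10363 in obese and 6122 to 8669 in lean rats. Its log2 fold change was 0.36 ± 0.096 (SE, limma adjusted p = 0.113), and 0.42 ± 0.10 (adjusted p = 0.0624) without the pair. Vdac2, a second pore, had 0.25 ± 0.098 (adjusted p = 0.240), and Slc25a4, which exchanges ADP for ATP, had 0.22 ± 0.090 (adjusted p = 0.261). The phosphate carrier Slc25a3 had -0.0072 ± 0.11 (adjusted p = 0.981).

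Of 12 tested genes of the citric acid cycle other than the Sdh subunits, 7 were above 0, with a median of 0.091 (0.013 after quantile normalization), and 0 passed. Idh3g, a subunit of isocitrate dehydrogenase, had 0.23 ± 0.11 (SE, limma adjusted p = 0.323), and citrate synthase, Cs, had 0.086 ± 0.078 (adjusted p = 0.628). Idh2, which makes NADPH, had -0.14 ± 0.083 (adjusted p = 0.441).

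Of the 8 members with over 1 probe set, Atp5me and Ndufa7 had, like Uqcrc2, a second tested probe set of the other sign. Both second sets were dim, with log2 fold changes of -0.19 ± 0.25 (Atp5me) and -0.24 ± 0.21 (Ndufa7).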
